A study of Drosophila melanogaster with 6 samples.

Results

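Agilent 4x44K Drosophila arrays carry, beside probes for annotated transcripts, probes designed from cDNA clones. The clones named AT and a number come from an adult testis library, and their probes were followed here in ovaries. They were taken as all probes whose systematic name was AT followed only by digits. This gave 145 probes for 128 clones, printed as 157 spots, of 32162 probes and 43602 spots other than controls on each array.

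The testis is a source of transcripts that many other tissues lack. In male germ cells, a testis-specific programme of transcription switches on a large set of genes in spermatocytes, the cells that go on to meiosis and build the sperm. A testis library also holds clones of genes that every cell uses, such as those for ribosomal proteins and proton pumps, so the name AT tells where a clone was found and not that its gene is limited to males. The ovary holds a female germ line of nurse cells and oocyte, wrapped in a layer of somatic follicle cells.

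Whole ovaries were profiled on 6 arrays, 3 for each genotype. Ovaries with ectopic expression were GAL80TS/+ ; GR1-GAL4/UAS-Unpaired, UAS-λtorpedo, in which the follicle cell driver GR1-GAL4 directed the JAK/STAT ligand Unpaired and a constitutively active EGF receptor. Control ovaries were GAL80TS/+ ; GR1-GAL4/TM6B, where TM6B is a balancer for the third chromosome. Both genotypes thus shared the driver and its temperature-sensitive repressor GAL80TS, came from crosses kept at 18 °C, were yeast-fed, and were taken at 5 to 8 days of age after 16 hours at 29 °C to release the driver. Each array paired the Cy5-labelled sample with a Cy3-labelled common reference from wild-type OreR ovaries, and dyes were never exchanged. Each of the 3 slides held 1 ectopic expression array and 1 control array. Ovaries of several flies went into a preparation, and since the driver acts in follicle cells but whole ovaries were extracted, fewer cells of a type and less RNA per cell cannot be told apart. Of 85 marker genes listed for testis, ovary and other tissues, the probe identifiers could be tied to 2, jim and kek1, both listed for follicle cells and both detected in Cy5 on all 6 arrays. Both were also higher in ectopic expression than in control ovaries, by 1.58 and 1.01 on the log2 scale (limma adjusted p = 0.0033 and 0.0027). Their level thus changed with genotype, and the labelled tissue was not checked further by markers.

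Most probes for testis clones gave little signal in ovaries. A probe was counted as detected on an array where at least a fraction 0.5 of its spots was scored by the scanner software as well above background. In Cy5, 51, 45 and 43 of the 145 probes were detected on ectopic expression replicates 1, 2 and 3, and 45, 45 and 91 on control replicates 1, 2 and 3. In percent these were 35.2, 31.0 and 29.7% in ectopic expression ovaries and 31.0, 31.0 and 62.8% in control ovaries. Control replicate 3 thus stood far above the other 5 arrays, which lay close together. On each array and in both channels the share of testis clones was below that of all probes and of clones from ovary and head libraries.

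The same array stood apart for the whole set of probes, of which 77.8% were detected in its Cy5 channel, against 52.7 to 56.9% on the other 5 arrays. Its Cy3 channel did not stand apart for the testis clones: 42, 49 and 44 probes were detected in the reference on the ectopic expression arrays, and 43, 41 and 51 on the control arrays. Median net Cy5 intensity, the median spot signal less its local background, was 37.0, 18.0 and 17.0 over the testis clone probes in ectopic expression ovaries and 26.0, 25.0 and 52.0 in control ovaries. The part of this brightness in the count of control replicate 3 was not tested.

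The number of testis clone probes detected did not differ between the genotypes beyond the spread of arrays. It averaged 46.3 ± 4.16 in ectopic expression ovaries and 60.3 ± 26.6 in control ovaries (SD, n = 3 each), 14 fewer probes in ectopic expression ovaries (exact two-sided permutation test, p = 0.7, where 0.1 is the smallest p possible). Without control replicate 3 the averages were 46.3 in ectopic expression ovaries and 45.0 in control ovaries, a difference of 1.33 (exact permutation test, p = 1.0). With 1 array fewer the smallest p possible is larger still. Within slides 1, 2 and 3 the difference was 6, 0 and -48 probes.

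Asked for on every array, detection divided the testis clones into a small steady group and a large dim one. There were 39 probes detected on all 3 ectopic expression arrays and 42 on all 3 control arrays, or 26.9 and 29.0%, against 49.9 and 51.6% of all probes. In both genotypes together 38 probes, from 35 clones, were detected on all 6 arrays. This is 26.2% of the testis clone probes, beside 48.0% of all probes, 58.6% of the 87 probes for clones named GM, from an ovary library, and 44.7% of the 150 probes for clones named GH, from an adult head library. These shares describe the probe sets and were not tested, since probes are not replicates.

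At the other end, 45 testis clone probes, 31.0%, were not detected in Cy5 on any array, beside 18.4% of all probes. A further 39 probes, 26.9%, were detected in Cy5 only on control replicate 3, beside 16.5% of all probes. In wild-type ovaries 33 probes, 22.8%, were detected on all 6 reference channels and 81, 55.9%, on none. Over all probes these shares were 47.3 and 32.8%. The 33 were also detected on every Cy5 channel, and the 45 probes without a Cy5 detection had none in Cy3 either.

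The abundance of the clones in wild-type ovaries was read from the reference channel, averaged over the 6 arrays. Net Cy3 intensity had a median of 17.5 over the testis clone probes and a range of 8.75 to 25700, beside a median of 27.0 over all probes, 36.7 over the GM probes and 25.6 over the GH probes. When all probes were divided at the quartiles of net Cy3 intensity, 16.5, 27.0 and 357, 63, 43, 29 and 10 of the testis clones fell into the groups from dimmest to brightest. Only 9 of them reached 500. Brightness also depends on how well a probe binds, so intensities serve to place the set of probes and do not rank one clone's RNA over another's.

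The 3 brightest probes in the reference were those for AT25373, AT14009 and AT02348, with mean net Cy3 intensities of 25700, 14915 and 6067. AT14009 is a clone of Vha13, a subunit of the vacuolar proton pump, which acidifies compartments in all cells. The identifiers paired no gene with the other clones of this trio. All 3 probes were detected in both channels of every array, so these testis-derived clones gave signals well above background in ovaries of each genotype.

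The comparison of ectopic expression with control ovaries asked whether active JAK/STAT and EGFR signalling in the follicle cells moved any of these transcripts. The log2 ratio of Cy5 to Cy3 was fitted with limma across all 32162 probes, and a probe was called changed at a Benjamini-Hochberg adjusted p of at most 0.05 and a fold of at least 2. No testis clone probe was called in either direction, where 1.29% of all probes were called higher and 0.824% lower. By comparison, 3 of the 87 GM probes were called higher and 0 lower. At an unadjusted p under 0.05, 15 testis clone probes or 10.3% passed, 7 higher and 8 lower, beside 23.1% of all probes. Of these, 9 were among the 38 probes detected on all Cy5 arrays and 6 among the other 107. The lower share of the set thus cannot be told apart from its dimness.

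The differences of the testis clones were narrow. They ran from -0.46 to 0.55 on the log2 scale with a median of 0.0047 and an SD of 0.136, beside a median of -0.0031 and an SD of 0.361 over all probes. Of the 145 probes, 74 lay above 0 and 71 below. The 95% interval of the difference stayed inside a 2-fold change for all 145, and for 95.3% of all probes. The bounds reached -0.73 for AT30755 and 0.90 for AT23078. For the dim probes this interval says less, because an offset of 50 added to both channels draws the ratios of signals near background towards 0.

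On ratios that carry the offset, the 38 probes detected on all Cy5 arrays varied more between genotypes than the dim ones. Their differences had an SD of 0.209 and a median size of 0.0905, against 0.0997 and 0.0572 for the other 107 probes. The spread within a genotype was close in both sets: the median SD of the 38 was 0.1 in ectopic expression ovaries and 0.104 in control ovaries, and that of the 107 was 0.088 and 0.089. The untransformed Cy3 signal, before the offset, had a median coefficient of variation over arrays of 19.4% for the 38 and 36.4% for the 107. The offset draws the ratios of dim probes towards 0, and so narrows their spread between and within genotypes. Whether the 38 vary more than the 107 without the offset was not tested, so no stronger response of the detected clones is read.

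At an adjusted p of at most 0.05 without regard to fold, 2 testis clone probes rose, AT15050 and AT28829, and 2 fell, AT25373 and AT12527. This is 1.38% in each direction, where 6.47% of all probes passed higher and 5.54% lower. The 4 were chosen for description after their values were seen. None could be given a gene name from the identifiers. Without ectopic expression replicate 1 the count of probes that passed was 0, and leaving out each of the other arrays gave 3 to 7.

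AT15050, detected in both channels of every array, had log2 ratios to the reference of 0.40, 0.39 and 0.33 in ectopic expression ovaries and 0.02, -0.01 and 0.00 in control ovaries. All 3 ectopic expression arrays lay well above all 3 control arrays, and the control ovaries sat at the level of the wild-type reference. The difference was 0.37 (SE 0.07, limma adjusted p = 0.0094), or 1.29-fold, and it was 0.38, 0.40 and 0.33 within the 3 slides. It passed in 16 of 18 alternative analyses, with adjusted p from 0.00849 to 0.137, and was lost without ectopic expression replicate 1 (0.0542) and with no offset (0.137).

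AT28829 was read by 3 probes, of which 1 rose. On that probe the ratios were 1.48, 1.76 and 1.36 in ectopic expression ovaries and 0.74, 1.22 and 0.99 in control ovaries. The groups did not overlap, but the lowest ectopic expression value stood only a little above the highest control value. The difference was 0.55 (SE 0.14, limma adjusted p = 0.0406), 1.46-fold with the offset, and 0.74, 0.55 and 0.36 within slides. Net Cy5 intensity was 365, 278.5 and 225.5 in ectopic expression ovaries and 177, 166 and 185 in control ovaries, while the reference was near background, with a median net Cy3 of 21.0 and detection on 1 of 6 arrays.

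The rise of AT28829 was the least steady of the 4. It passed in 11 of 18 alternatives, with adjusted p from 0.0137 to 0.312, and was lost without ectopic expression replicate 1 (0.115), ectopic expression replicate 2 (0.123), control replicate 1 (0.129) or control replicate 3 (0.0876). It was also lost with no offset (0.254), with trended and robust moderation (0.0834) and with the scanner software's own ratio, where the difference was 1.04 (0.312). The other probes of the clone gave differences of 0.19 and -0.08 (limma adjusted p = 0.24 and 0.80). The probe at -0.08 was detected on all arrays in Cy5, and the one at 0.19 on no ectopic expression array and on 1 control array. The probes of this clone thus gave different values for 1 transcript name.

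AT25373, the brightest of the set in the reference, fell in ectopic expression ovaries. Its ratios were -0.44, -0.52 and -0.27 in ectopic expression ovaries and 0.05, 0.12 and -0.03 in control ovaries, with no overlap. The control ovaries again lay near the wild-type reference. The difference was -0.46 (SE 0.09, limma adjusted p = 0.012), and -0.49, -0.64 and -0.24 within slides. Net Cy5 intensity was 64248, 43227 and 55341 in ectopic expression ovaries and 69647, 63937 and 73984 in control ovaries, so the raw signals of the groups overlapped where the ratios did not.

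The fall of AT25373 passed in 14 of 18 alternatives, with adjusted p from 0.00347 to 0.141. Leaving out ectopic expression replicate 1 gave 0.0625, leaving out control replicate 2 gave 0.062, and no offset gave 0.121. In the Cy5 channel alone, without the reference, the difference was -0.24 (limma adjusted p = 0.141).

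AT12527 fell too, at the limit of detection. Its probe was well above background on no ectopic expression array and on all 3 control arrays, with net Cy5 intensities of 32.5, 17.5 and 14.0 in ectopic expression ovaries and 81.0, 82.0 and 125.5 in control ovaries. The highest ectopic expression value was well under the lowest control value. Its ratios were -0.07, 0.04 and -0.09 in ectopic expression ovaries and 0.35, 0.34 and 0.49 in control ovaries, a difference of -0.43 (SE 0.08, limma adjusted p = 0.0093).

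Because AT12527 was not detected in ectopic expression ovaries, its fold was also computed from the normalized Cy5 signals alone, without the reference. The lowest signal scored as well above background on each array was to serve as a floor. The floor did not change the result. Mean log2 Cy5 signals were 6.20 in ectopic expression ovaries and 6.89 in control ovaries, and the fold of 1.62 is their plain difference. It is thus an estimate that still carries the offset, and not a lower bound set by the limit of detection. With no offset on the background-corrected signals the difference was -1.01 (limma adjusted p = 0.0329), the only call of a 2-fold change of a testis clone in any of the 18 alternatives. It passed in 16 of them, with adjusted p from 0.0014 to 0.235, and was lost without ectopic expression replicate 1 (0.0535) and with the scanner software's own ratio, where the difference was -1.80 (0.235).

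The reverse pattern of detection, every ectopic expression array and no control array, was seen for 1 probe, AT19020. Its net Cy5 intensities were 61.75, 41.75 and 36.5 in ectopic expression ovaries and 44.75, 27.25 and 39.25 in control ovaries. These intensities overlapped. Its log2 ratios were -0.02, 0.06 and 0.13 in ectopic expression ovaries and -0.02, -0.22 and -0.15 in control ovaries, which lay apart by only 0.0007 at the nearest pair, replicate 1 of each genotype. The difference of 0.19 did not pass (95% interval -0.0025 to 0.37, limma adjusted p = 0.223). Detection on every array of 1 genotype and none of the other thus held 1 testis clone probe in each direction, 0.69%. Over all probes the shares were 0.18% for ectopic expression only and 0.541% for control only. With 1 probe in each direction, no departure from the array as a whole is read.

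Just outside the threshold stood AT30755 and AT11392, with differences of -0.44 and -0.32 and limma adjusted p of 0.0586 and 0.0601. AT05157 followed at -0.23 (adjusted p = 0.0718), but its probe was detected in Cy5 on 1 control array and no ectopic expression array, and in Cy3 on none. Over the set, 18 probes had all 3 ectopic expression arrays above all 3 control arrays and 10 had them all below, 12.4 and 6.9%, beside 14% and 13.6% of all probes. These shares do not stand above those of the array as a whole.

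Set against the wild-type reference, most testis clones lay close to a ratio of 1 in both genotypes. Array medians of the log2 ratio ran from -0.02 to 0.01. The reference flies differed from both groups in genotype and in temperature, and the reference always carried the other dye, so these causes of a ratio cannot be told apart and the ratios are given without a test. The ratios carry the offset of 50, which draws those of dim probes towards 0. On that scale 2 probes, AT23078 and AT28829, had a mean log2 ratio of 1 or more in ectopic expression ovaries, and AT23078 had one in control ovaries, where AT28829 stood just under it at 0.98. The reference of AT28829 was detected on 1 of 6 arrays, so its ratios are no exact folds and its place on either side of that line is not read as a difference between genotypes. None was 2-fold below. Over all probes, 3.33% were past 2-fold in ectopic expression ovaries and 1.3% in control ovaries.

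AT23078, a clone of the protein-coding gene CG8204 on chromosome arm 2R, had the highest ratio of the set on this scale, on which the ratio of AT28829 is drawn down further than its own because of its dim reference. It was 2.33, 2.84 and 2.21 in ectopic expression ovaries and 1.75, 1.95 and 2.14 in control ovaries, so both genotypes stood far above the wild-type reference. Net Cy5 intensity was 2490.5, 2143.5 and 2127 in ectopic expression ovaries and 2082, 1442.5 and 2370 in control ovaries, against 166.5 to 194.5 in the Cy3 channel of the reference. Between the genotypes the ratios did not overlap, but the difference of 0.52 (SE 0.17) did not pass (limma adjusted p = 0.0899). It was 0.58, 0.89 and 0.08 within slides, and without ectopic expression replicate 3 it was 0.64 with an adjusted p of 0.0313.

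AT16518 also stood above the reference in both genotypes, at 0.88 ± 0.18 in ectopic expression ovaries and 0.64 ± 0.04 in control ovaries (SD, n = 3 each) on one probe. Its second probe gave 0.22 ± 0.10 in ectopic expression ovaries and 0.25 ± 0.17 in control ovaries. The lowest ratios belonged to AT22791 at -0.63 ± 0.10 in ectopic expression ovaries and -0.51 ± 0.18 in control ovaries, AT03386 at -0.61 ± 0.13 in ectopic expression ovaries and -0.51 ± 0.16 in control ovaries, and AT05170 at -0.61 ± 0.13 in ectopic expression ovaries and -0.52 ± 0.14 in control ovaries. All 3 were detected in both channels of every array.

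Names of genes could be attached to a minority of the clones. Of the 145 probes, 23 matched exactly 1 gene through the clone names listed by RefSeq, 1 matched several and 121 had no match. Of the 23 genes, 21 are protein-coding and 2 are antisense RNAs, and 14 lie on chromosome 3, 9 on chromosome 2 and 0 on the X. The chromosome counts were not set against those of other probes and are description only. Chromosome 3 is the one carried as TM6B in control flies, and an effect of the balancer was not tested. No named probe passed the adjusted p. Their differences ran from -0.21 to 0.52.

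Of the named clones, 6 were detected on all Cy5 arrays. Vha13 and RpS29, a protein of the small ribosomal subunit, serve functions that every cell needs. Vha13 had ratios of 0.00, 0.16 and -0.05 in ectopic expression ovaries and 0.00, -0.06 and -0.01 in control ovaries. These overlap, and the difference was 0.06 (95% interval -0.13 to 0.24, limma adjusted p = 0.774). RpS29 had ratios of 0.01, 0.04 and -0.03 in ectopic expression ovaries and -0.05, -0.18 and -0.20 in control ovaries. These do not overlap, but its difference of 0.15 did not pass (limma adjusted p = 0.302). The RpS29 probe was dim, with a mean net Cy3 intensity of 42.4, against 14915 for the Vha13 probe. Its net Cy5 intensity lay between 60.5 and 101 on the arrays. The offset therefore draws its ratios towards 0, and its difference says less about RpS29 than that of a bright probe would.

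The other named and detected clones were CG8204, Ten-m, CG9133 and an antisense RNA. Ten-m, a teneurin of the cell surface known for its part in matching synaptic partners, differed by -0.02 (limma adjusted p = 0.953). CG9133 differed by -0.14 (0.523) and asRNA:CR31429 by -0.05 (0.838). The array holds a further probe for asRNA:CR31429 outside the AT clones, and it too was detected on all Cy5 arrays and differed by 0.01 (0.96).

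Dim named clones included genes with a known place in the male germ line or in every cell. The probe for wuc, which encodes a protein related to a subunit of the chromatin complex that drives spermatocyte transcription, was detected in Cy5 on control replicate 3 only, the array on which 62.8% of the set was scored as detected. Its net Cy5 intensity there was 66.0, against 19.5 and 25.0 on the other control arrays. Its ratios were 0.04, 0.02 and -0.12 in ectopic expression ovaries and 0.15, 0.14 and 0.09 in control ovaries, a difference of -0.15 that did not pass (limma adjusted p = 0.321). The probe for puf, a deubiquitinating enzyme, was detected on no array in either channel and differed by -0.08 (adjusted p = 0.72). ND-B14.5AL, named as a subunit-like protein of mitochondrial complex I, was detected in Cy5 on control replicate 3 only and differed by 0.00 (adjusted p = 0.984).

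Among the rest, CG13474 had the lowest difference of the named clones, -0.21 (limma adjusted p = 0.123), with detection in Cy5 on control replicate 3 only. With no offset its difference was -0.85 and passed (adjusted p = 0.0245). Of the 23 named probes, 7 were not detected in Cy5 on any array, and a further 6 only on control replicate 3. These are 30.4 and 26.1%, beside 18.4 and 16.5% of all probes. A probe without a detection here gives no more than an upper bound on the signal, and a clone may also have a poor probe.

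For 15 clones the array held several probes, 32 in all. In 2 clones, AT14971 and AT16518, each probe was detected on all Cy5 arrays, in 8 clones none was, and in 5 clones only some were. Differences between probes of 1 clone ran from 0.0063 for AT08427 to 0.63 for AT28829, with AT16518 at 0.26 and AT03160 at 0.21 next. In those 5 clones, detection on all Cy5 arrays depended on which probe was read. The other probe of AT17896, AT21289 and AT08427 was still detected in Cy5 on some arrays of each genotype. The other probes of AT28829 and AT03160 were each detected in Cy5 on 1 control array and no ectopic expression array.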

How the data were processed

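Scanner files of 6 two-colour arrays, made with Agilent Feature Extraction, gave deposited median signal and background intensity per spot, with flags for spots above background and for outliers. The authors' deposited log2 ratios, made with limma by normexp background correction, loess and quantile normalization, served as an alternative. The scanner software's deposited log10 ratio of Cy5 to Cy3, after its own background and dye correction, served as another. Over the testis clone probes the log2 ratios correlated with the recomputed ratios at 0.99882 to 0.99986 by array, and the same 4 probes passed.

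From the intensities, normexp (offset 50), loess within and quantile normalization between arrays were applied in limma 3.58.1 (R 4.3.3). Outlier spots (106 to 123 per array, none of a testis clone) were set missing and spots of a probe averaged. Groups followed the sample labels. lmFit and eBayes ran over all 32162 probes, with Benjamini-Hochberg adjustment, and the fit was tested on simulated data. Arrays have no read depth, so their number, 3 against 3, limits precision, and the labels call them biological replicates. Genes were named through RefSeq Release 6 by clone synonym, without coordinates because the files use an older build.

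The rule for named probes took called probes, probes matched to 1 gene, probes detected in all of one group and none of the other, the 3 brightest, and 3 clones whose probes differed most. The first part named none. Members and lists were chosen with earlier results of these data known. Of the marker lists, testis, germ line, chorion, muscle, fat body and hemocyte had 0 genes named, and follicle cells 2 of 10. Alternatives were other background correction, normalization, filters, moderation, flags, a replicate block and leaving out each array.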

Additional observations from a re-analysis of the deposited data

How the results depend on the processing

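No testis clone was called upward under any alternative, and with normexp offset 0 the probes and the clones called downward were each 1 (AT12527), against 0 otherwise, leaving out each array in turn included. The median difference over the set, 0.0047, was -0.0107 without background correction, -0.0036 with median centring in place of loess, -0.0039 with loess only, -0.0222 with dim probes left out and -0.0847 with the Feature Extraction log ratio, and -0.0029 to 0.0125 when each array was left out. With the scanner's positive and significant flag in place of well above background, 61 probes in place of 39 were detected on all ectopic expression arrays, 69 in place of 42 on all control arrays, 61 in place of 33 on all reference channels, and 3 in place of 45 in no channel. Leaving out each array gave 46 to 80 probes detected in no channel, the 80 without control replicate 3. The numbers detected in every channel of a group or of the reference moved by at most 2 probes. Arrays with the same replicate number shared a slide. With that number, and so the slide, as a block, 0 probes were called upward and 0 downward and 4 passed the adjusted p, as without it. Same-numbered arrays deviated together only in part (r = 0.25, 0.00166 and 0.101 over all probes). The main fit left the slide out, although it is part of the design. Of 36 named probes under 18 alternatives, 15 comparisons lost the adjusted p and 2 gained it. Among the 554 that passed in neither, 48 had the other sign. Low signal limits the set: 107 of 145 probes were not detected on every Cy5 array.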
